A study of Homo sapiens with 24 samples.

Results

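The genes described here are HOXA5, HOXA7, HOXA9, HOXA10, HOXA11, HOXA13, MEIS1, PBX3, MEF2C and MYB, a transcription factor program of acute myeloid leukaemia (AML). They were taken by symbol from the deposited tables of 2 AML cell lines, and all 10 were found among the 35587 symbols of each table. HOXA genes encode homeodomain transcription factors that are active in blood stem and progenitor cells and are shut down as myeloid cells mature. MEIS1 and PBX3 encode DNA-binding partners that form complexes with HOXA9 and its relatives. In leukaemias with a rearranged KMT2A (MLL) gene, the fusion protein, with its cofactors menin and DOT1L, keeps HOXA9 and MEIS1 switched on. MYB encodes a transcription factor that progenitors need to keep proliferating, and MEF2C encodes a MADS-box factor that is also active in KMT2A-rearranged leukaemia.

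RNA was sequenced from cells of the lines MOLM14 and OCI-AML2 that had been kept for 24 h in DMSO, the solvent control, AZ2 or ARM165, which gave 6 groups of 4 libraries. MOLM14 is an AML line that carries a KMT2A-MLLT3 fusion, and OCI-AML2 is another AML line, whose KMT2A status is not given here. The title of the series names PI3K gamma, AKT and a degrader, but whether AZ2 or ARM165 is that degrader is not stated in the labels. They give no doses and do not say whether libraries came from separate cultures, so the spread that p-values rest on may be technical only. With the most frequent value above 0 of a library taken as 1 read, the libraries came to an estimated 35.4 to 59.0 M reads. They had 18889 to 19699 symbols above 0. Values are normalized estimated reads per gene. How they were scaled is not given, and each line may have been scaled separately. Levels were thus compared neither between lines nor between genes, whose lengths differ. In these bulk samples fewer cells of a type and less RNA per cell cannot be told apart. Of 12 myeloid markers, 12 in MOLM14 and 11 in OCI-AML2 reached 10 in at least 4 libraries, and their summed level with ARM165 lay below that with DMSO in both lines, at 51100 to 59200 against 86100 to 90600 in MOLM14 and 60100 to 61800 against 113000 to 122000 in OCI-AML2. In MOLM14 a large part of this drop lay in LYZ and FLT3, whose means went from 20320 to 2677 and from 24080 to 10670. By limma at an adjusted p under 0.05, 8 of the 12 were lower and 2 higher in MOLM14, beside 34% and 35.5% of all genes. In OCI-AML2, 8 of 11 were lower and 1 higher, beside 31.6% and 34.2%. The part of this lower summed level in the results below was not tested. CD3E, MS4A1 and EPCAM, defining markers of T cells, B cells and epithelial cells, had a median of at most 1.63 over the 12 libraries of either line, and the platelet marker PF4 was listed at 0 in every library. The summed level of 8 T and NK cell markers in MOLM14 was 731 to 800 with DMSO and 1860 to 2060 with ARM165, where CD8A reached 1469, and that of 9 epithelial and fibroblast markers was 2090 to 2400 and 3630 to 3930, most of it KRT18. The part of these markers in the results was not tested.

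The promoters of the 3 genes on which the results turn most are shown as the 250 bases before a transcription start, 5′ to 3′ along the gene, from RefSeq on GRCh38.p14. Promoter sequences were matched for 9 of the 10 genes. HOXA9 and HOXA10 are neighbours on chromosome 7 and moved in opposite directions with ARM165. Their sequences are chr7:27165538-27165787 and chr7:27174321-27174570, both on the minus strand, the second from the start nearer to HOXA9 of 2 annotated for HOXA10. Capitals mark a CCAAT box or its complement ATTGG. The MYB sequence is chr6:135181058-135181307 on the plus strand, with capitals for TTTGGCG, a core bound by E2F factors.
HOXA9: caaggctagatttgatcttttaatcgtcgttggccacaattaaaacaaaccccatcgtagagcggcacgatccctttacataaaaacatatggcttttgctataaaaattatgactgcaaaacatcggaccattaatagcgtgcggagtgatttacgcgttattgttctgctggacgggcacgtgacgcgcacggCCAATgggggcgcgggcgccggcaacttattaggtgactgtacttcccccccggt
HOXA10: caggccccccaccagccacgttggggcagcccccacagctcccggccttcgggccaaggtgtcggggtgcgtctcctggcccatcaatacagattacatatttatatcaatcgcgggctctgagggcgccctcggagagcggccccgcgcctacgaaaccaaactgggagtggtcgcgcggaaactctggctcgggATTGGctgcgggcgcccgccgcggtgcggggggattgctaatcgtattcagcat
MYB: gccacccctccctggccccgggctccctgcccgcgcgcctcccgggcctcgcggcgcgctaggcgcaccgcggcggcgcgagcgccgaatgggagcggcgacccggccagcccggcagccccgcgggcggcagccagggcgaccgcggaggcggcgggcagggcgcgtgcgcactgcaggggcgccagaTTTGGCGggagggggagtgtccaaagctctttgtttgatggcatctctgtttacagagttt
The CCAAT box lay 55 to 51 bases before the start in HOXA9 and, on the other strand, 54 to 50 bases before the printed start in HOXA10. Before the other annotated start of HOXA10, which is not printed, CCAAT lay at 249 to 245 bases. Searched on both strands, CCAAT was present in 32.0% of 35116 promoters of the same length and at 7 of the 16 annotated starts of the 9 matched genes. Counted by gene, where any start can hold the motif, 6 of the 9 held it. HOXA9 also held the E-box CACGTG at 71 to 66 bases before its start, a motif found in 6.34% of promoters. In MYB the E2F core TTTGGCG lay at 61 to 55 bases, and 1.59% of promoters and none of the other matched genes held it. The FOXO core GTAAACA, present in 2.98% of promoters, was found in MYB alone of these genes, as its complement at 14 to 8 bases. The HOX-PBX core TGATTNAT was present in 2.48% of promoters and the MEF2 consensus in 2.36%, and none of the 9 genes held either. The MEIS core TGACAG, in 13.0% of promoters, was found at 4 of the 16 starts, in PBX3 and MEF2C. The MYB core TAACNG, in 17.6%, was found at 3 of the 16, in MEIS1 and MEF2C. A match describes letters in the window and is not a binding site.

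With ARM165, MYB fell in both lines and HOXA9 rose in both, while HOXA10, the next gene of the cluster, fell in both. MEIS1 rose in MOLM14 and did not pass the test in OCI-AML2. With AZ2, none of the 10 genes passed the test in either line. Tests were made with limma on log2(value + 1), p-values were adjusted by Benjamini-Hochberg over the whole table, and genes with an adjusted p under 0.05 are referred to as called. In MOLM14 all 10 genes were called with ARM165, 6 higher and 4 lower, where 69.5% of 15288 genes were called, 35.5% higher and 34% lower. In OCI-AML2, 7 of 10 were called, 3 higher and 4 lower, where 65.8% of 15377 genes were called, 34.2% higher and 31.6% lower, so the share called there was near that over all genes. HOXA13 passed the filter of 10 in 4 libraries in OCI-AML2 only through its DMSO libraries, so it had to differ there, and without it 6 of 9 were called, 3 in each direction. The median size of the log2 change of the 10 genes was 0.741 in MOLM14 and 0.506 in OCI-AML2, beside 0.627 and 0.663 over all genes. ARM165 libraries did not overlap DMSO libraries for 9 of the 10 genes in MOLM14, where 63.8% of all genes had no overlap, and for 6 in OCI-AML2, where 60.5% had none, the same share to within a gene. Between the lines 3 genes (HOXA5, HOXA9 and PBX3) were higher in both and 3 (HOXA10, HOXA11 and MYB) lower in both, HOXA11 in MOLM14 not with equal library totals, and 3 (HOXA7, MEIS1 and MEF2C) were called in MOLM14 and not in OCI-AML2. HOXA13 is set apart from this count, and no gene was called in opposite directions.

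**Figure D1:**
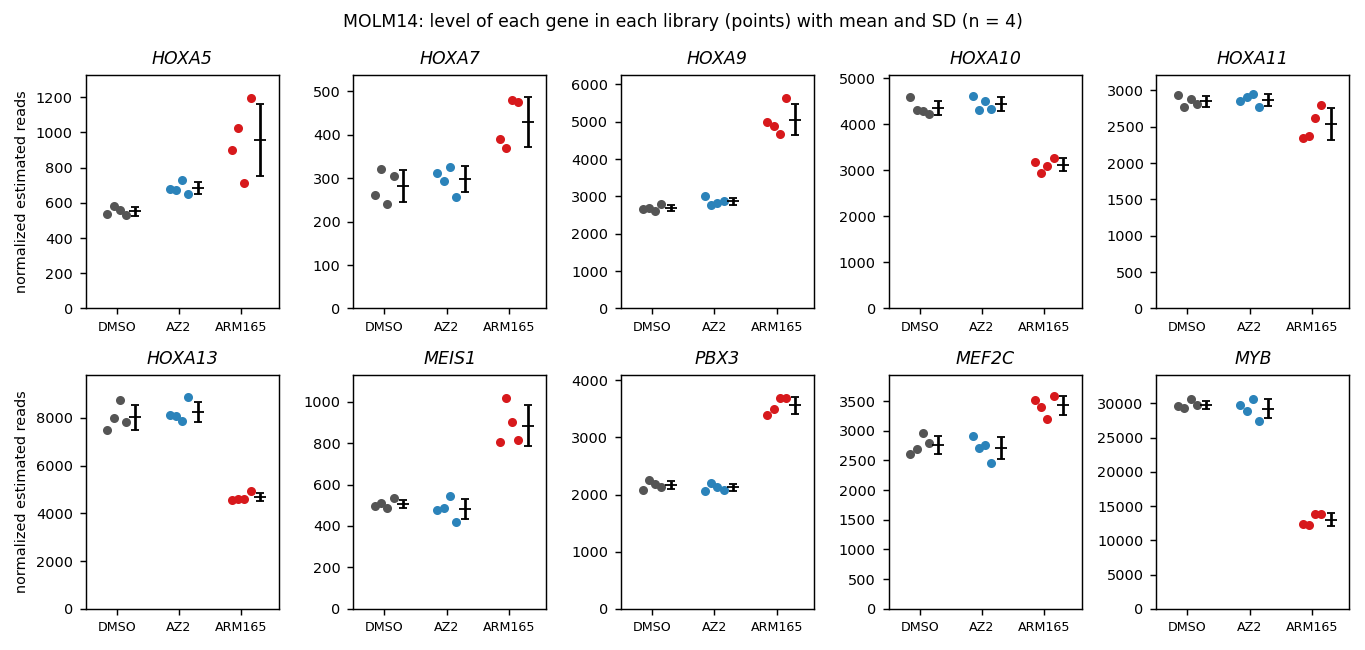
Normalized estimated reads (y axis, from 0) of the 10 genes in the 12 MOLM14 libraries by treatment; each point is a library, and the bar beside it is the mean with its SD (n = 4). The 4 ARM165 libraries lie apart from the DMSO libraries for each gene other than HOXA11, whose groups overlap.

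**Figure D2:**
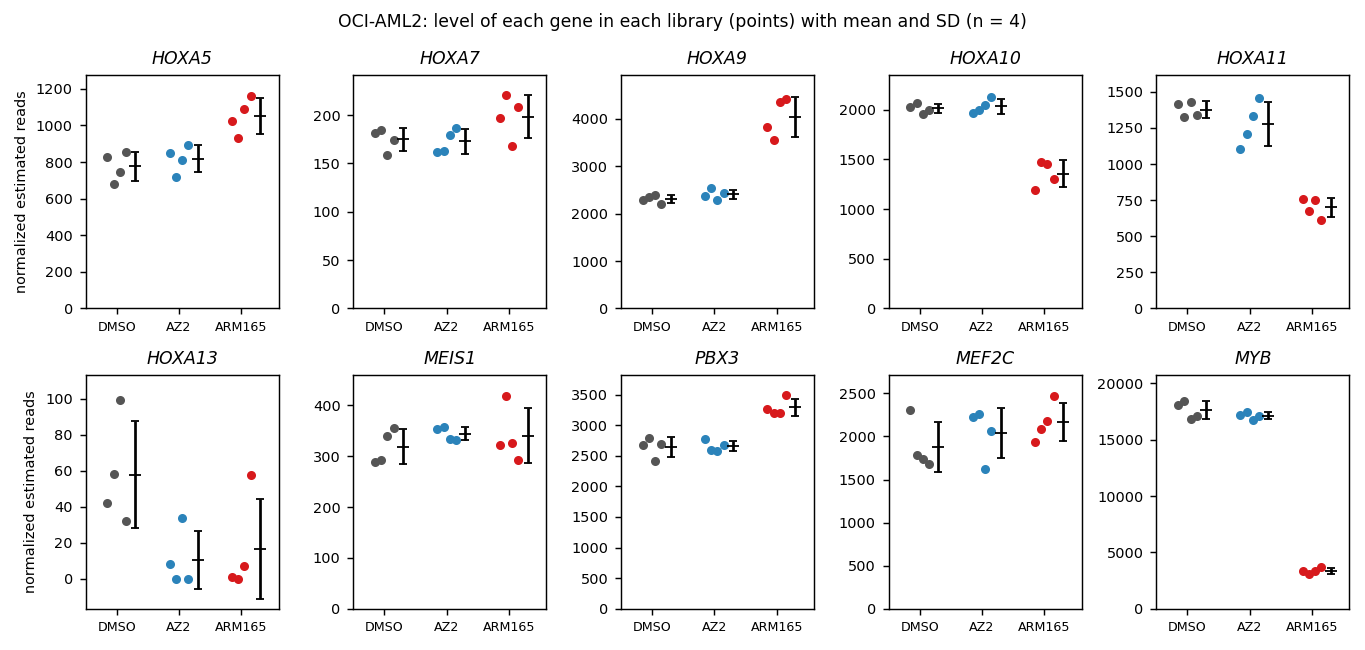
The same 10 genes in the 12 OCI-AML2 libraries (points, with mean and SD, n = 4). MYB with ARM165 lies between 3057 and 3670, below all DMSO libraries, while the HOXA7, HOXA13, MEIS1 and MEF2C groups overlap.

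MYB had the smallest adjusted p of the 10 genes in both lines. In OCI-AML2 its level was 18129, 18459, 16843 and 17086 with DMSO and 3310, 3057, 3380 and 3670 with ARM165. Each ARM165 library lay below each DMSO library, and the mean was 5.26-fold lower, a log2 change of -2.40 ± 0.0552 (SE, adjusted p = 1.78e-14 by limma). That size was at the 95.2 percentile of all genes tested in the line. In MOLM14 MYB was at 29559, 29250, 30567 and 29747 with DMSO and at 12319, 12164, 13812 and 13816 with ARM165. The groups again did not overlap, with a mean 2.29-fold lower and a log2 change of -1.20 ± 0.0504 (adjusted p = 1.22e-11 by limma), at the 77.8 percentile. With AZ2, MYB was at 29197 ± 1393 (SD, n = 4) in MOLM14 and 17119 ± 306 in OCI-AML2, overlapping DMSO in both.

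HOXA9, the HOX gene most closely tied to AML, rose in every ARM165 library of both lines. In MOLM14 it was at 2665, 2698, 2603 and 2785 with DMSO and at 4989, 4893, 4683 and 5650 with ARM165. The groups did not overlap, and the log2 change was 0.91 ± 0.0546 (adjusted p = 6.6e-10 by limma), a mean 1.88-fold higher. In OCI-AML2 it was at 2287, 2353, 2385 and 2206 with DMSO and at 3834, 3549, 4347 and 4427 with ARM165. Again all ARM165 libraries were above all DMSO libraries, with a log2 change of 0.80 ± 0.0691 (adjusted p = 4.95e-08) and a mean 1.75-fold higher. These sizes lay at the 66.4 and 58.3 percentiles of all genes, so many genes of either line changed by more.

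HOXA10, another cluster gene active in early blood cells, fell where HOXA9 rose. In MOLM14 it was at 4587, 4307, 4293 and 4229 with DMSO and at 3187, 2938, 3102 and 3264 with ARM165, with no overlap (log2 change -0.48 ± 0.0457, adjusted p = 1.44e-07 by limma). In OCI-AML2 it was at 2030, 2066, 1960 and 1992 with DMSO and at 1189, 1475, 1455 and 1300 with ARM165, again with no overlap (-0.58 ± 0.069, adjusted p = 2.12e-06). The sizes of these falls lay at the 39.7 and 44.6 percentiles, so most genes of either line changed by more. The ratio of HOXA9 to HOXA10 within a library does not depend on how libraries were scaled to each other. It was 0.581 to 0.659 with DMSO, 0.626 to 0.664 with AZ2 and 1.51 to 1.73 with ARM165 in MOLM14. In OCI-AML2 it was 1.11 to 1.22, 1.12 to 1.27 and 2.41 to 3.41. In both lines each ARM165 library had a higher ratio than any other library of its line. The ratio of HOXA9 to MYB went from 0.0852 to 0.0936 with DMSO to 0.339 to 0.409 with ARM165 in MOLM14, and from 0.126 to 0.142 to 1.16 to 1.29 in OCI-AML2. These ratios were chosen after the changes were known and are given with no test.

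**Figure D3:**
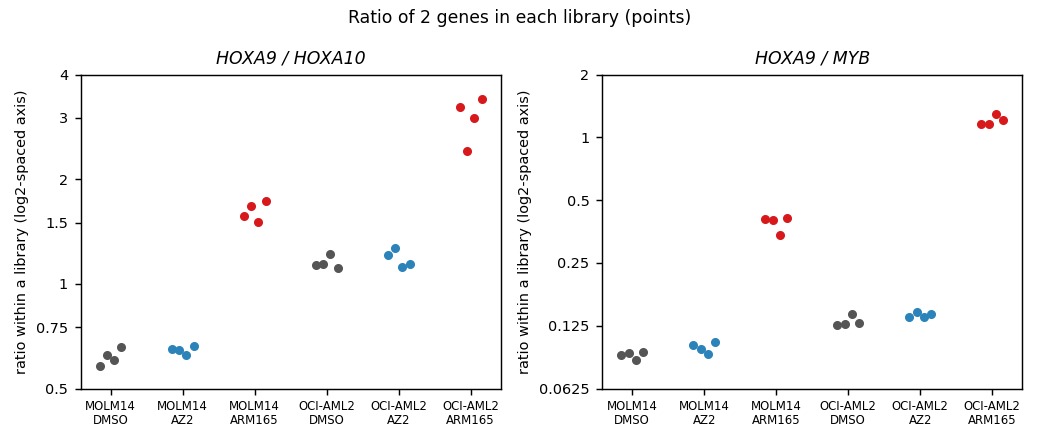
Ratio of HOXA9 to HOXA10 (left) and of HOXA9 to MYB (right) within each library, on log2-spaced axes, by line and treatment; each point is a library. All 4 ARM165 libraries of a line lie above its DMSO and AZ2 libraries in both panels.

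HOXA5 and HOXA7 precede HOXA9 in the cluster. HOXA5 was at 536, 584, 559 and 530 with DMSO and at 898, 1023, 709.9 and 1197 with ARM165 in MOLM14 (log2 change 0.77 ± 0.119, adjusted p = 3.29e-05 by limma). In OCI-AML2 it was at 827, 681, 747 and 855 with DMSO and at 1025, 933, 1091 and 1160 with ARM165 (0.44 ± 0.0957, adjusted p = 0.000821). HOXA5 was thus higher in every ARM165 library than in any DMSO library of either line. HOXA7 was at 262, 320, 240 and 305 with DMSO and at 390, 368, 480 and 476 with ARM165 in MOLM14, with no overlap (0.60 ± 0.125, adjusted p = 0.000501). In OCI-AML2 HOXA7 was at 158 to 185 with DMSO and 168 to 220 with ARM165, which overlapped, and it did not pass (0.18 ± 0.126, 95% interval -0.0919 to 0.447, adjusted p = 0.233).

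HOXA11 and HOXA13, the genes at the far end of the cluster, are best known for patterning limbs and the urogenital tract. HOXA13 in MOLM14 was at 7510, 7982, 8759 and 7826 with DMSO and at 4561, 4586, 4613 and 4926 with ARM165. It fell with no overlap between the groups, by 0.78 on the log2 scale (SE 0.0522, adjusted p = 2.38e-09 by limma). In OCI-AML2 HOXA13 was barely detected, at 41.8, 58.0, 99.3 and 32.0 with DMSO, 8.05, 0, 33.7 and 0 with AZ2 and 1.12, 0, 6.94 and 57.5 with ARM165. It reached 10 in 4 DMSO libraries, 1 AZ2 library and 1 ARM165 library, so it was tested only because of its DMSO level, and its call with ARM165 (log2 change -3.26 ± 1.25, adjusted p = 0.0311 by limma) is no evidence of a change. The groups overlapped, and 6 of 21 alternatives ended the call, including those without DMSO replicate 2 or 3 or without ARM165 replicate 1 or 2 (0.0592, 0.0788, 0.0825 and 0.101). HOXA11 in OCI-AML2 was at 1419, 1323, 1433 and 1337 with DMSO and at 759, 678, 750.1 and 615 with ARM165, with no overlap (-0.98 ± 0.091, adjusted p = 1.19e-07). HOXA11 in MOLM14 was at 2774 to 2939 with DMSO and 2344 to 2797 with ARM165, which overlapped, and its called change of -0.17 ± 0.0559 (adjusted p = 0.0121) became 0.0177 when libraries were set to equal totals.

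MEIS1 and PBX3, the partner genes, rose together in MOLM14. MEIS1 was at 495, 511, 486 and 534 with DMSO and at 807, 1016, 901 and 813 with ARM165 there, with no overlap (log2 change 0.80 ± 0.0923, adjusted p = 1.37e-06 by limma). In OCI-AML2 MEIS1 was at 288 to 356 with DMSO and 293 to 419 with ARM165, a change of 0.09 ± 0.119 (interval -0.166 to 0.34, adjusted p = 0.542) that turned to -0.0765 with quantile normalization and to -0.0171 without ARM165 replicate 2. PBX3 in MOLM14 was at 2087, 2261, 2193 and 2140 with DMSO and at 3394, 3494, 3689 and 3685 with ARM165 (0.72 ± 0.0461, adjusted p = 1.5e-09). In OCI-AML2 PBX3 was at 2679, 2786, 2412 and 2686 with DMSO and at 3262, 3207, 3205 and 3487 with ARM165 (0.32 ± 0.0563, adjusted p = 0.000123). PBX3 thus had no overlap between these groups in either line.

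MEF2C in MOLM14 was at 2605 to 2959 with DMSO and 3208 to 3593 with ARM165, with no overlap (log2 change 0.31 ± 0.0589, adjusted p = 0.000209 by limma). In OCI-AML2 it was at 2311, 1783, 1737 and 1684 with DMSO and at 1934, 2086, 2177 and 2470 with ARM165. DMSO replicate 1 stood above the other 3 DMSO libraries, and the groups overlapped (0.21 ± 0.117, interval -0.0379 to 0.462, adjusted p = 0.126). Without that library the change was 0.32 and was called (adjusted p = 0.0199).

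**Figure D4:**
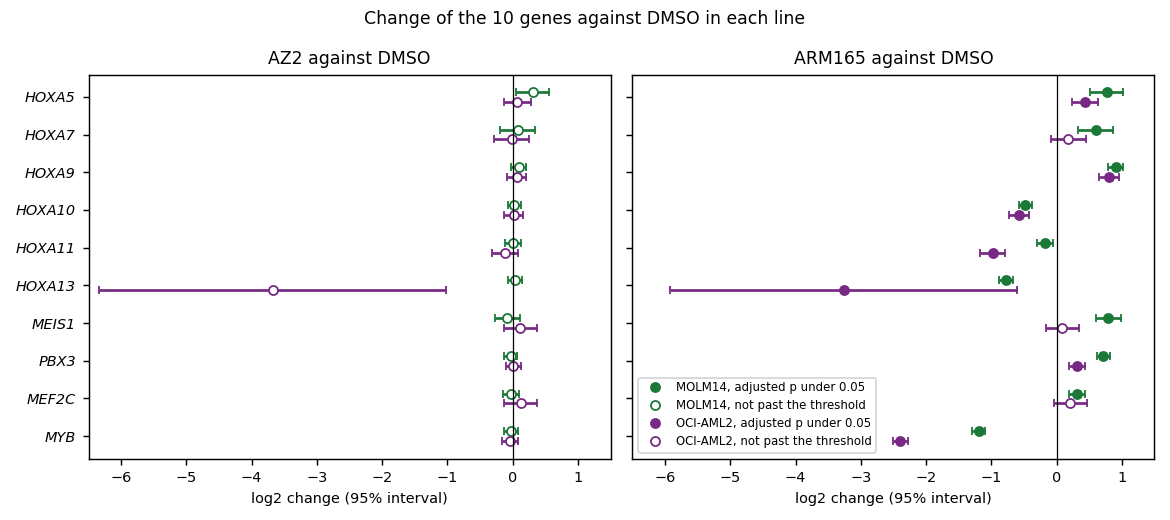
Log2 change (x axis) of each of the 10 genes with AZ2 (left) and ARM165 (right) against DMSO in MOLM14 and OCI-AML2, with 95% intervals; filled points have an adjusted p under 0.05. No AZ2 point is filled, and the ARM165 points of MYB lie at -1.20 and -2.40.

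HOXA genes lie side by side, and the changes with ARM165 of 10 of them, from HOXA2 to HOXA13, were set in their order along the chromosome. In MOLM14, HOXA5, HOXA6, HOXA7 and HOXA9 rose and the 3 genes that follow, HOXA10, HOXA11 and HOXA13, fell, of which HOXA11 turned to 0.0177 with equal library totals. Beyond the genes already described, HOXA6 went from 229 ± 13.4 (SD, n = 4) to 399 ± 36.1 (log2 change 0.80 ± 0.111, adjusted p = 1.03e-05 by limma) and HOXA3 from 188 ± 28.9 to 351 ± 36.6 (0.90 ± 0.128, adjusted p = 1.27e-05). HOXA2 and HOXA4 did not pass, at -0.40 ± 0.26 and -0.24 ± 0.165, though both were called lower with quantile normalization. In OCI-AML2 HOXA3 fell by 0.68 (SE 0.179, adjusted p = 0.00353), a difference from its change in MOLM14 of -1.58 ± 0.204 (adjusted p = 1.11e-06). HOXA2 fell by 1.24 there (SE 0.344, adjusted p = 0.005), and its difference from MOLM14 was not called (-0.84 ± 0.438, adjusted p = 0.132). HOXA4 and HOXA6 were at -0.02 ± 0.175 and -0.01 ± 0.212 and did not pass. From HOXA9 to HOXA11 the directions were those of MOLM14, HOXA11 in MOLM14 apart from its sign with equal library totals.

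**Figure D5:**
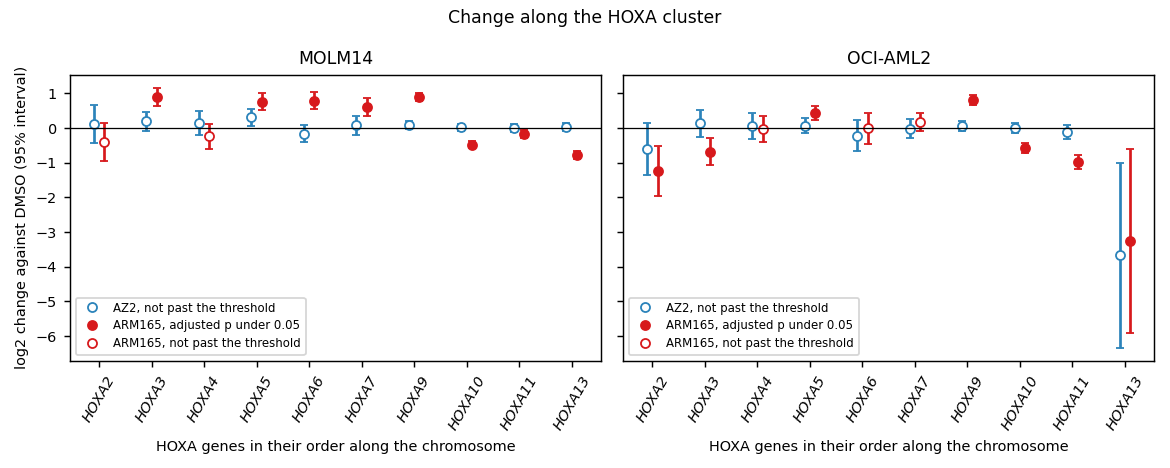
Log2 change against DMSO (y axis, with 95% intervals) of 10 HOXA genes in chromosome order (x axis) with AZ2 and ARM165 in each line; filled points have an adjusted p under 0.05. In both lines the ARM165 change is above 0 at HOXA9 and below 0 at HOXA10 and HOXA11, although that of HOXA11 in MOLM14 turned to 0.0177 with equal library totals.

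AZ2 was the next comparison. In MOLM14, 0 of the 10 genes were called with AZ2 by limma, where 0% of all genes were called and 899 of 15288 (5.88%) had an unadjusted p under 0.05. The changes lay between -0.08 for MEIS1 and 0.31 for HOXA5. HOXA5 was at 679, 673, 731 and 650.2 with AZ2, above each of its DMSO libraries, and it was the only one of the 10 with an unadjusted p under 0.05 there (0.31 ± 0.119, interval 0.0518 to 0.562, adjusted p = 0.787 by limma). For HOXA9, MEIS1 and MYB the 95% intervals were -0.0223 to 0.211, -0.276 to 0.118 and -0.137 to 0.0781. In OCI-AML2, 0 of 10 were called, where 0.111% of all genes were called (0.0065% higher and 0.104% lower) and 733 of 15377 (4.77%) had an unadjusted p under 0.05, and 1 of the 10, HOXA13, had an unadjusted p under 0.05 (-3.68 ± 1.25, interval -6.34 to -1.02, adjusted p = 0.832 by limma), the gene that passed the filter through DMSO alone. There the intervals were -0.0866 to 0.209 for HOXA9, -0.139 to 0.368 for MEIS1 and -0.159 to 0.0765 for MYB. Of 107 genes of the pathway lists described below that were tested in each line, 0 were called with AZ2 in either.

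The 2 compounds were also compared with each other, at doses not known to match. In MOLM14 all 10 genes differed between ARM165 and AZ2 by limma, 6 higher and 4 lower with ARM165, where 70.1% of all genes were called, 36.1% higher and 34% lower. The differences ran from -1.17 ± 0.0504 for MYB to 0.88 ± 0.0923 for MEIS1, and that of HOXA11 (-0.18 ± 0.0559, adjusted p = 0.00865) became 0.0327 with equal library totals. In OCI-AML2, 6 of 10 differed, 3 higher (HOXA5, HOXA9 and PBX3) and 3 lower (HOXA10, HOXA11 and MYB), where 65.8% of all genes were called, 34.5% higher and 31.4% lower. MYB differed by -2.35 ± 0.0552 (adjusted p = 2.39e-14) and HOXA9 by 0.74 ± 0.0691 (adjusted p = 1.25e-07). For MEIS1, MEF2C, HOXA7 and HOXA13 the intervals of the difference were -0.281 to 0.226, -0.159 to 0.341, -0.0752 to 0.464 and -2.25 to 3.07. This comparison and that with DMSO share the ARM165 libraries.

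Whether the lines responded differently was tested in 1 fit of all 24 libraries, as the change in OCI-AML2 minus that in MOLM14. For ARM165, 5 of the 10 genes differed by limma, 0 higher and 5 lower in OCI-AML2, where 42.4% of 14287 genes were called, 24.3% higher and 18.1% lower. The fall of MYB was larger in OCI-AML2 (difference -1.20 ± 0.0738, adjusted p = 6.82e-12 by limma). The change of HOXA11 was also lower there (difference -0.81 ± 0.107, adjusted p = 1.63e-06). In MOLM14 the change of HOXA11 turned to 0.0177 with equal library totals, so a fall in that line is not settled. The rises of MEIS1 and PBX3 in MOLM14 were not matched in size, with differences of -0.71 ± 0.148 (adjusted p = 0.000434) and -0.40 ± 0.0677 (adjusted p = 4.37e-05). The difference for HOXA7 (-0.42 ± 0.171, adjusted p = 0.0487) was no longer called in 18 of 33 alternatives, where its adjusted p reached 0.114. HOXA9 and HOXA10 were not called, with differences of -0.11 ± 0.088 (interval -0.287 to 0.0765) and -0.10 ± 0.0795 (interval -0.26 to 0.0684). With equal library totals HOXA5, HOXA9 and HOXA10 were also called and the count was 8, with the median over all genes at -0.114 in place of 0.044. HOXA5 (-0.33 ± 0.16, adjusted p = 0.102) was also called without MOLM14 ARM165 replicate 3 (adjusted p = 0.00792), and HOXA13 (-2.48 ± 1.32, adjusted p = 0.137), tested in OCI-AML2 through DMSO alone, without OCI-AML2 ARM165 replicate 4 (-3.61, adjusted p = 0.0116). For AZ2, 0 of 10 genes differed between the lines, where 0.028% of all genes were called (746, or 5.22%, at an unadjusted p under 0.05).

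The other genes of the program's pathways were described with lists that overlap in places. A gene was left out of the counts of its list if it no longer passed the filter with 1 treatment group set aside. This choice was made after the values were seen. The counts stand beside the 35.5% of all genes called higher and 34% called lower with ARM165 in MOLM14. In OCI-AML2 these shares were 34.2% and 31.6%. No test set a list against other genes. Of MYB targets, 9 of 13 fell and 2 rose in MOLM14 with ARM165, and 10 of 13 fell and 2 rose in OCI-AML2, with 2 and 1 others left out. Their median changes were -0.801 and -1.19, beside 0.0314 and 0.0338 over all genes tested. MYC, the proliferation factor, fell by 1.70 (SE 0.0695) in MOLM14 and fell by 1.93 (SE 0.0558) in OCI-AML2 on the log2 scale. BCL2, a survival gene on the lists of both MYB and HOXA9 targets, fell by 0.73 (SE 0.0489) and by 1.57 (SE 0.0524). In MOLM14 the mitotic cyclin gene CCNB1 fell by 1.42 (SE 0.0601) and LYAR, a nucleolar protein gene, fell by 1.40 (SE 0.0569). In OCI-AML2 GFI1, a myeloid repressor gene, fell by 1.29 (SE 0.0459). PPARG, a nuclear receptor gene, rose in OCI-AML2, from 137 ± 51.7 to 15710 ± 734.0 (6.92 ± 0.238, adjusted p = 1.46e-12 by limma).

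Of the targets of HOXA9, MEIS1 and MLL fusions, 9 of 23 rose and 8 fell in MOLM14, with a median of 0.083, and 10 of 24 rose and 8 fell in OCI-AML2, with a median of 0.031, with 2 others left out in each line. FUT4, which makes the CD15 antigen, fell by 1.51 (SE 0.0373, adjusted p = 5.69e-14 by limma) in MOLM14 and by 2.29 (SE 0.0458, adjusted p = 4.45e-15) in OCI-AML2. FLT3, the receptor kinase gene often mutated in AML, fell by 1.18 (SE 0.0455) and by 1.64 (SE 0.0752). SYK, a cytoplasmic kinase gene, fell by 1.34 (SE 0.0492) in OCI-AML2. In MOLM14 the RUNX2 transcription factor gene rose by 1.40 (SE 0.0561) and CPEB2, a translation regulator gene, rose by 1.09 (SE 0.0623). Over all 26 tested in OCI-AML2, the counts turned from 10 higher and 8 lower to 8 higher and 9 lower with quantile normalization or equal upper quartiles, and the median of the 25 in MOLM14 turned to -0.106 with quantile normalization.

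The list of MLL, menin and DOT1L regulators mixes members and cofactors of these complexes with Polycomb genes, which silence HOXA genes. In MOLM14 13 of its 26 genes rose and 7 fell, and in OCI-AML2 14 of 26 rose and 9 fell (medians 0.286 and 0.231). WDR5, a core subunit of MLL complexes, fell by 1.18 (SE 0.0542) in MOLM14 and by 1.22 (SE 0.0569) in OCI-AML2. JMJD1C, a cofactor gene of the demethylase family, rose by 1.04 (SE 0.0416) in MOLM14 and by 2.38 (SE 0.0842) in OCI-AML2. In MOLM14 SETD2, a histone methyltransferase gene, rose by 1.00 (SE 0.0483). In OCI-AML2 the elongation factor gene ELL rose by 1.45 (SE 0.0823) and EZH2, the Polycomb methyltransferase gene, fell by 0.94 (SE 0.0576). With equal library totals the MOLM14 counts were 18 higher and 5 lower.

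Among relatives and partners of MYB, 2 of 6 rose and 2 fell in MOLM14 (4 and 2 with equal library totals) and 3 of 6 rose and 2 fell in OCI-AML2. MYBL2, the family member of cycling cells, fell by 1.38 (SE 0.0542) in MOLM14 and by 1.80 (SE 0.0542) in OCI-AML2, and MYBL1 fell by 1.04 (SE 0.258) and by 1.35 (SE 0.164). The coactivator genes CREBBP and EP300, whose proteins bind MYB, rose by 1.86 (SE 0.126) and 1.58 (SE 0.0886) in MOLM14. In OCI-AML2 they rose by 1.99 (SE 0.167) and 1.75 (SE 0.122). Of the relatives of MEIS1, PBX3 and MEF2C, 5 of 9 rose and 3 fell in MOLM14, with 1 other left out, and 5 of 11 rose and 2 fell in OCI-AML2. MEF2A, a close relative of MEF2C, went from 1146 ± 33.6 to 6813 ± 555.0 in MOLM14 (2.57 ± 0.0757) and from 221 ± 19.6 to 1173 ± 90.1 in OCI-AML2 (2.40 ± 0.109). MEF2D fell by 0.67 (SE 0.0985) in OCI-AML2. TGIF1, a homeodomain repressor gene, rose by 2.00 (SE 0.0842) in MOLM14 and by 2.30 (SE 0.0554) in OCI-AML2, while TGIF2 fell by 0.99 (SE 0.0827) and by 1.06 (SE 0.0744). MEIS3, at 9.78 ± 3.1 with DMSO in MOLM14, was at 124.8 ± 26.1 with ARM165, but it passed the filter through ARM165 alone and is given as levels only.

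Of 8 HOXB genes 2 passed the filter in MOLM14 and 0 in OCI-AML2. HOXB9 went from 23.7 ± 8.14 to 160 ± 24.6 in MOLM14 (2.76 ± 0.42, adjusted p = 2.62e-05 by limma). HOXB3 was at 6.46 ± 6.49 with DMSO and 21.8 ± 11.4 with ARM165. It reached 10 in 3 ARM165 libraries and 1 DMSO library, so it would not pass without ARM165 and is given as levels only. Of the myeloid differentiation genes, 8 of 19 rose and 9 fell in MOLM14, and 7 of 22 rose and 12 fell in OCI-AML2 (medians 0.072 and -0.704), with 3 and 1 others left out. LYZ, the lysozyme gene, fell by 2.93 (SE 0.049) and S100A8 fell by 4.08 (SE 0.136) in MOLM14, and S100A9 fell by 1.85 (SE 0.0664) in OCI-AML2. The regulator gene IRF8 fell by 1.48 (SE 0.0458) and by 2.11 (SE 0.0609) in MOLM14 and OCI-AML2. CEBPB, a factor of maturing myeloid cells, rose by 2.58 (SE 0.0822) and by 2.73 (SE 0.0862). KLF4, a monocyte factor gene, rose by 3.34 (SE 0.084) in OCI-AML2.

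The genes whose levels most resembled those of HOXA9, MEIS1 and MYB were found by Pearson correlation over the 12 libraries of each line among 14286 other genes, taking the lower of the values of the 2 lines. The correlations are descriptions, since the libraries fall into ARM165 and the rest. HOXA9 was most like RAB5A (0.99 in MOLM14, 0.986 in OCI-AML2), ASF1A (0.992 and 0.985) and TBK1 (0.99 and 0.985). The mean of RAB5A with ARM165 was 3.22 and 4.28 times that with DMSO, beside 1.88 and 1.75 for HOXA9. MYB was most like ERLIN1 (0.998 and 0.998), TPX2 (0.998 and 0.998) and BRI3BP (0.998 and 0.999). MEIS1 had no gene as close, with TBX6 at 0.852 and 0.76, RGS9 at 0.853 and 0.74 and AL136295.5 at 0.71 and 0.772.

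Some of these genes share sequence with transcripts from the other strand or with read-through transcripts. In GENCODE release 29, 62.2% of the 31-base words of HOXA7 also lie in HOXA-AS3 on the opposite strand, 29.8% of those of HOXA11 in HOXA11-AS, and 15.5% and 12.0% of those of HOXA10 and HOXA9 in HOXA10-AS. The kit keeps strand, but the strand setting of the quantification is not given in the sources used here, so reads of these pairs may be mixed. The antisense genes were not analysed here. On the same strand, HOXA9 and HOXA10 share 12.3% and 9.01% of their words with AC004080.3, which was listed at 0 in 21 of 24 libraries and reached at most 22.6 in the other 3. PBX3 shared none of its words with another gene.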

How the data were processed

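RNA-seq values of 24 libraries (2 cell lines, 3 treatments, 4 libraries each) were taken from 2 tables the authors deposited, 1 per line, with 35587 symbols each and 0 columns left out. The deposited signal values are normalized estimated reads per gene. Reads were quantified with kallisto, per the submitters' processing notes; its version, the scaling method, genome build and annotation are not given in the sources used here. The most frequent value above 0 of a library was taken as the value of 1 read. Divided by it, 15.1 to 15.8% of values above 0 lay within 0.01 of a whole number. Whole reads could thus not be recovered, and no count model was used. No library pair held identical values.

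Genes that reached 10 in 4 or more of a line's libraries were fitted as log2(value + 1) with limma 3.58.1 (R 4.3.3), with group means over the 12 libraries of a line, a variance trend and empirical Bayes moderation. The difference between lines was an interaction contrast over 24 libraries and 14287 genes. Fold changes are on the log2(value + 1) scale and understate the change of low genes; a fold in the text is a ratio of means. p-values were adjusted by Benjamini-Hochberg over all genes tested. The fit was run on simulated data in which few genes changed. Changes as broad as those with ARM165 were not simulated. Tables and plots were made with Python 3.11.15, pandas 2.3.3, numpy 2.4.6 and matplotlib 3.10.9.

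The genes and the lists were chosen with earlier results of these data known. All 10 genes are named in each comparison; from each other list, the up to 4 called genes with the smallest adjusted p with ARM165 are named, and for HOXA9, MEIS1 and MYB the 3 genes with the most similar levels. The noncoding RNAs of the HOXA cluster were not analysed here. Some genes that the rule named are not reported here. Alternatives were other pseudocounts, filters and scalings, no variance trend, a replicate block, 2 groups only and each library left out.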

Additional observations from a re-analysis of the deposited data

Results flagged for a closer look

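In 3 of the 60 groups of 4 libraries checked, 1 library stood apart from the other 3, with a gap to its nearest neighbour, as a share of the group's range, above Dixon's critical value; chance alone gives about 1 in 20 such groups. HOXA13 with ARM165 in MOLM14 was at 4926 in replicate 4, and the next library was at 4613. HOXA13 with ARM165 in OCI-AML2 was at 57.5 in replicate 4, and the next was at 6.94. MEF2C with DMSO in OCI-AML2 was at 2311 in replicate 1, and the next was at 1783.

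For 5 of the 10 genes the ARM165 response differed between the lines in the interaction test by limma, as the log2 change in OCI-AML2 minus that in MOLM14. The differences were -0.42 for HOXA7, -0.81 for HOXA11, -0.71 for MEIS1, -0.40 for PBX3 and -1.20 for MYB. That of HOXA7 lost its call in 18 of 33 alternatives.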

How the results depend on the processing

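Over 80 results on the 10 genes, 755 of 775 values under other settings and 1153 of 1200 with 1 library left out kept their direction and their side of the threshold. The count of genes with a line difference in the ARM165 response was 8 with equal library totals in place of 5. That setting moved the median ARM165 change over all genes in MOLM14 from 0.031 to 0.223 against DMSO, and the share of called genes that were higher from 51.1% to 61.7%; against AZ2 these went from 0.04 to 0.256 and from 51.5% to 62.9%, and for the line difference from 0.044 to -0.114 and from 57.3% to 38.4%. With 1 library left out, the 10 genes gave 6 to 8 calls for ARM165 against DMSO in OCI-AML2 and 4 to 6 for the ARM165 line difference; the other counts did not move.

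The directions that turned were as follows, and the cause was not tested. MEIS1 in OCI-AML2 with ARM165 against DMSO was -0.0765 with quantile normalization. HOXA11 in MOLM14 with equal library totals was 0.0177 for ARM165 against DMSO, -0.0149 for AZ2 against DMSO and 0.0327 for ARM165 against AZ2. HOXA7 in OCI-AML2 with AZ2 was 0.0073 with equal upper quartiles. For the line difference in the AZ2 response, HOXA10 was 0.0195, 0.0196 and 0.0137 and MYB 0.0472, 0.0216 and 0.0156 with quantile normalization, equal totals and equal upper quartiles, and HOXA9 was 0.0003 with equal totals. With 1 library left out, values that changed sign, none of them called with all libraries, ranged as follows. For AZ2 against DMSO in OCI-AML2, HOXA10 ranged from -0.0092 to 0.0305, HOXA7 from -0.0629 to 0.0151 and PBX3 from -0.0316 to 0.0377. In MOLM14, HOXA11 ranged from -0.0033 to 0.0269 and MEF2C from -0.062 to 0.0197. For the AZ2 line difference, HOXA10 ranged from -0.0391 to 0.0055, MYB from -0.0413 to 0.0127 and PBX3 from -0.0008 to 0.0685. In OCI-AML2, ARM165 against AZ2 ranged from -0.715 to 1.43 for HOXA13, from -0.0147 to 0.144 for MEF2C and from -0.132 to 0.039 for MEIS1, and MEIS1 against DMSO from -0.0171 to 0.154. The ARM165 line difference of MEF2C ranged from -0.166 to 0.0025.

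Libraries of different treatments shared only a replicate number. In MOLM14 the correlations of their deviations were -0.026 to 0.056 for the same number and -0.063 to 0.046 for other numbers. In OCI-AML2 they were -0.037 to 0.047 and -0.056 to 0.044. In MOLM14 7 of 12 libraries correlated best with their own number, and in OCI-AML2 2 of 12. Whether these counts differ from chance was not tested. With the replicate block the counts of the 10 genes called were 10 for ARM165 against DMSO, 0 for AZ2 against DMSO and 10 for ARM165 against AZ2 in MOLM14, 7, 0 and 6 in OCI-AML2, and 4 and 0 for the line differences with ARM165 and AZ2. Over all genes, calls for AZ2 against DMSO in OCI-AML2 were 17, 7 with no variance trend, 10 with the replicate block and 9 to 17 with 1 library left out; in MOLM14 they were 0, 1 with only the 2 groups compared and 0 to 3 with 1 library left out; for the AZ2 line difference they were 4, 1 to 6 under other settings and 0 to 7 with 1 library left out. A filter of 50 left no value for HOXA13 in OCI-AML2, where its levels were near 0.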
